A study of Mus musculus with 18 samples.

Results

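The genes described here encode splicing factors and nuclear RNA-binding proteins, followed in the mouse heart under chronic hypoxia. They were all genes whose platform symbol starts with Hnrnp, Srsf, Snrp, Sf3a, Sf3b, Prpf, U2af, or Lsm before a digit, with a value on at least 9 of the 18 arrays. Of 67 matching symbols, 4 (Hnrnph3, Prpf4, Snrpd2 and U2af1l4) occurred only on spots that carry a second symbol and were left out. Of the 63 symbols with a spot of their own, 61 met the rule, out of 8410 named genes with a value on as many arrays. These 61 genes had 135 spots and comprised 18 Hnrnp, 7 Srsf, 8 Snrp, 2 Sf3a, 6 Sf3b, 1 U2af, 9 Prpf and 10 Lsm genes. The gene just inside the threshold was Lsm6, with a value on 9 arrays, and those just outside were Snrpc (8 arrays) and Lsm11 (6 arrays).

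The mice, male and female, had spent 1, 2 or 4 weeks in chronic hypoxia that was either constant (CCH) or intermittent (CIH), or served as controls. Each cDNA array carried a male heart labelled with Cy5 against a female heart of the same group labelled with Cy3, and each value is the log2 ratio of both channels. Each of the 9 groups had 2 arrays, so 6 per condition. Strain, age and oxygen level are not given in the labels used here. Nor do the labels say whether the arrays of a group held separate animals, and p-values therefore describe only the variation among arrays. The direction of the ratio is not stated either. It is likely male over female, because the Y-linked gene Eif2s3y was positive on 17 of 18 arrays. A comparison of conditions therefore shows whether the male-to-female ratio moved, and cannot show in which sex. A change of equal size in both sexes cancels in the ratio and cannot be seen here. In a comparison of the ratio with 0, sex and dye cannot be told apart. In whole hearts, fewer cells of a type and less RNA per cell cannot be told apart.

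Most products of these genes act on newly made messenger RNA in the nucleus, whereas Lsm14a and Lsm14b act on translation in cytoplasmic granules. Sm and Sm-like (Lsm) proteins form rings around the small nuclear RNAs, the Sf3a, Sf3b and U2af proteins recognise the branch site and the end of the intron, and Prpf proteins build and remodel the spliceosome. SR proteins (Srsf) bind exons and mostly favour their inclusion, whereas heterogeneous nuclear ribonucleoproteins (Hnrnp) coat the transcript and often oppose it. In the heart, splicing of sarcomere and ion-handling transcripts changes during development and disease.

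The number of values fell with the duration of the experiment: 20489 to 24512 spots had a value on the 1-week arrays, 15802 to 19720 on the 2-week arrays and 12650 to 17904 on the 4-week arrays. Of the 61 genes, 60 to 61 had a value at 1 week, 56 to 60 at 2 weeks and 51 to 59 at 4 weeks. Over these genes the replicate arrays correlated at 0.57, 0.69 and 0.73 in the CCH groups of 1, 2 and 4 weeks, at 0.20, 0.64 and 0.23 in the CIH groups, and at -0.17, 0.35 and -0.15 in the control groups. The control replicates of 1 and 4 weeks thus did not resemble each other. Over all spots with a value on both arrays of a pair, 12 of 153 pairs of arrays correlated under -0.3, and the lowest correlation was -0.53. The array counted as CIH 1 week replicate 1 has that group in its title and 2 weeks of CCH in its source names. The array counted as control 2 weeks replicate 1 has 2 weeks in its title beside the code 1A, and it enters every 2-week comparison with control. Ratios give no level, so the tissue could not be checked by the abundance of heart markers, and 3 of 12 cardiomyocyte markers (Tnnt2, Tnnc1 and Pln) had a value.

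**Figure D1:**
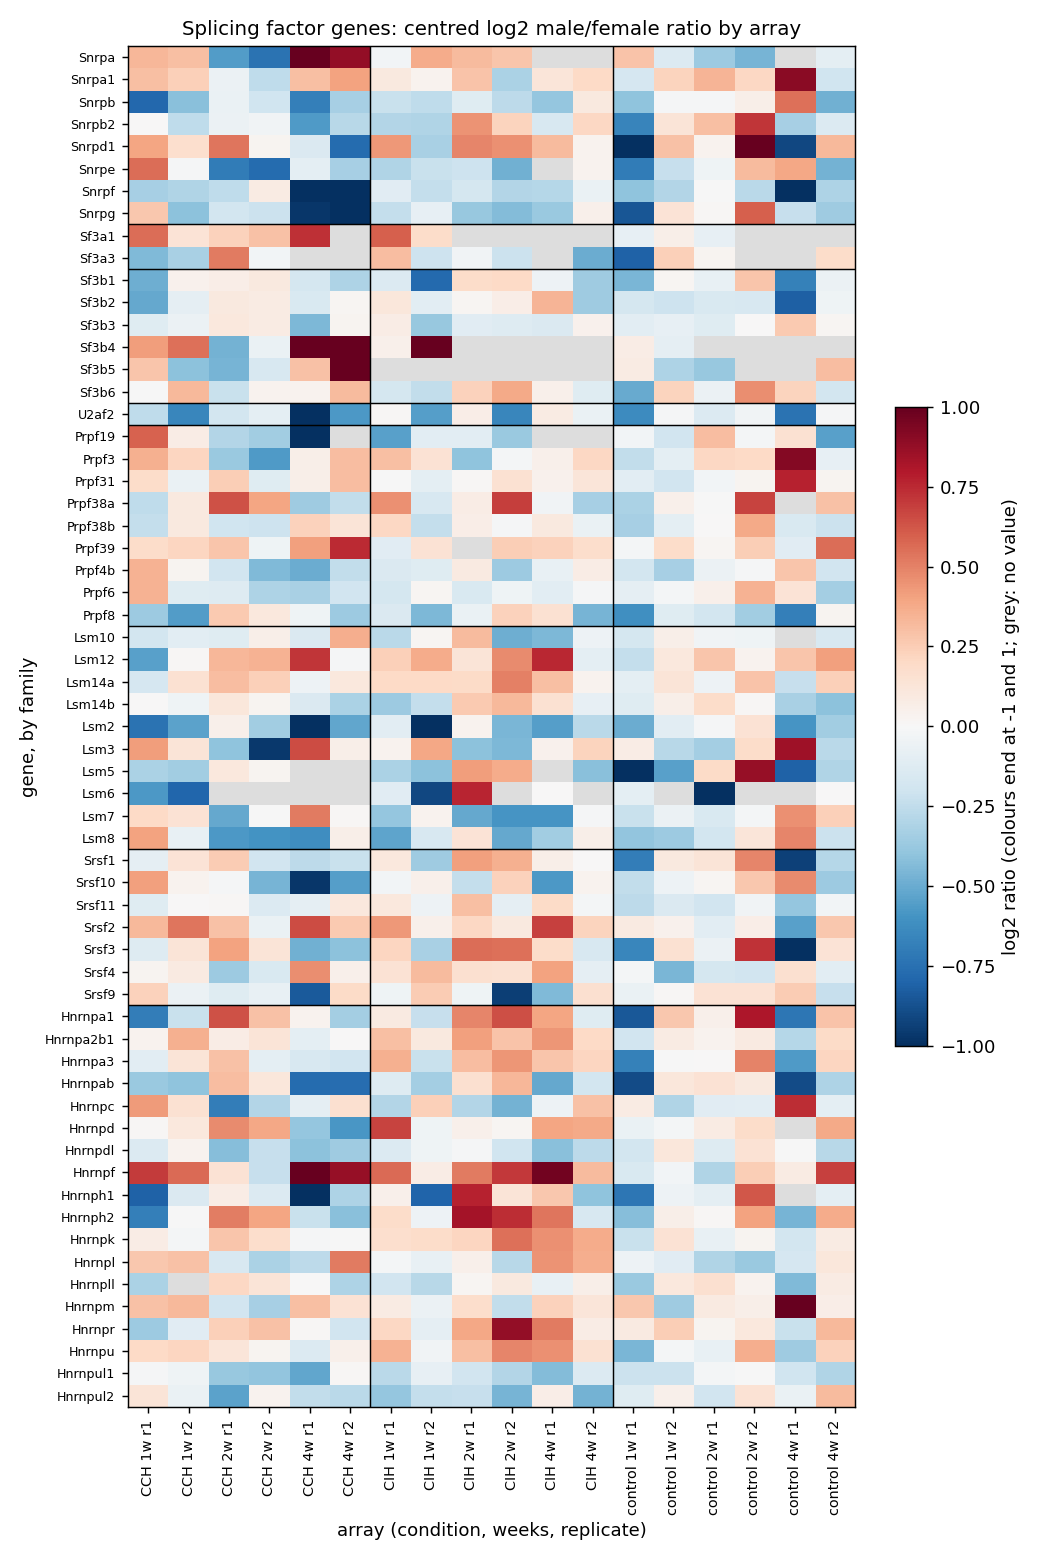
Centred log2 male-to-female ratio of the 61 genes (rows, grouped by family) on the 18 arrays (columns, CCH left, CIH centre, control right). Red is above 0 and blue below 0, colours end at -1 and 1, and grey has no value. Snrpf and Hnrnpul1 were each below 0 on 17 arrays, and of the 18 Hnrnp genes 15 were below 0 on control 1 week replicate 1.

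Averaged over the 9 groups, the male-to-female ratio differed from 0 for 12 of the 53 genes that could be tested, which is 22.6%. Of all 10272 units tested, 27.7% differed from 0, so the share among the splicing genes was not above the background. At an unadjusted p under 0.05 it was 41.5%, against 41.1% of all units. Hnrnpf, Prpf39 and Srsf2 were above 0. Snrpf, Snrpg, Snrpb, Lsm2, U2af2, Prpf8, Hnrnpul1, Hnrnpab and Hnrnpdl were below 0. In the background 8.99% of units lay above and 18.7% below. The median ratio of the 53 genes was -0.05 on the log2 scale, with 21 positive and 32 negative, and that of all units was -0.04. The test was limma's moderated test against 0, two-sided, with Benjamini-Hochberg adjustment over all units and a threshold of 0.05. Without centring the arrays, the split became 1 above and 14 below 0, and with quantile normalization 5 above and 9 below. The other 8 genes, Snrpa, Sf3a1, Sf3a3, Sf3b4, Sf3b5, Prpf19, Lsm5 and Lsm6, lacked a value in at least 1 group and were not tested.

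Proteins of the Sm ring, the shared core of most spliceosomal snRNPs, had 3 of the 9 genes below 0. Snrpf, which encodes ring protein F, was negative on 17 of 18 arrays, with a mean of -0.38 ± 0.06 (SE, n = 18 arrays; limma adjusted p = 0.000809), or 1.30-fold less signal in the likely male channel. Its ratios were -1.58, -0.32 and 0.08 (lowest, median and highest of 6) on the CCH arrays, -0.29, -0.21 and -0.06 on the CIH arrays, and -1.01, -0.30 and -0.01 on the control arrays. The lowest 3 values were those of CCH 4 weeks replicates 1 and 2 (-1.58 and -1.02) and control 4 weeks replicate 1 (-1.01), and the conditions overlapped. Snrpg, for ring protein G, had a mean of -0.26 ± 0.07 (limma adjusted p = 0.0181, negative on 13 of 18). It stood at -0.99, -0.31 and 0.27 on CCH arrays, at -0.43, -0.30 and 0.05 on CIH arrays, and at -0.86, -0.11 and 0.59 on control arrays. Both CCH arrays of 4 weeks were again the lowest, and the 3 ranges overlapped. Snrpb, which encodes ring protein B, averaged -0.22 ± 0.07 (limma adjusted p = 0.0309, negative on 15 of 18). It was negative on 6 of 6 CCH arrays, 5 of 6 CIH arrays and 4 of 6 control arrays. The ring protein genes Snrpe (-0.18, limma adjusted p = 0.0814) and Snrpd1 (0.09, limma adjusted p = 0.59) did not pass. Among the genes of specific snRNPs, Snrpa1 of the U2 particle had the highest mean of the family at 0.15 (limma adjusted p = 0.128), and Snrpb2 was at -0.06. Snrpa, of the U1 particle and untested, ran from -0.74 on CCH 2 weeks replicate 2 to 1.09 on CCH 4 weeks replicate 1.

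Among the Sm-like genes, 1 of 8 passed. Lsm2, for a subunit of the ring that binds U6 RNA in the nucleus, averaged -0.41 ± 0.08 (SE, n = 18; limma adjusted p = 0.00327; negative on 15 of 18 arrays), the lowest mean among the 53 tested genes. It was at -1.08, -0.53 and 0.05 on CCH arrays, at -1.38, -0.36 and 0.03 on CIH arrays, and at -0.59, -0.23 and 0.15 on control arrays. The lowest value belonged to CIH 1 week replicate 2, and in each condition 5 of 6 arrays were negative. Other subunits of that ring were Lsm8 (-0.18, limma adjusted p = 0.0726), Lsm7 (-0.08) and Lsm3 (-0.00), which did not pass. Lsm12, a Sm-like gene outside the ring, had the highest mean of the family, 0.20 ± 0.07, just outside the threshold (limma adjusted p = 0.0509). It was positive on 14 of 18 arrays.

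U2af2 encodes the large subunit of the factor that binds the polypyrimidine tract ahead of the 3' splice site. Its mean was -0.32 ± 0.08 (SE, n = 18; limma adjusted p = 0.00945). Its ratios were -1.23, -0.42 and -0.10 on CCH arrays, -0.66, -0.03 and 0.08 on CIH arrays, and -0.74, -0.09 and -0.01 on control arrays. All CCH and all control arrays were thus negative, whereas the CIH arrays split 3 to 3. Of the Sf3b genes, whose products hold the branch site in the U2 particle, 0 of 4 passed limma's test (1 at an unadjusted p under 0.05). Sf3b1, the largest subunit, was lowest at -0.15 (limma adjusted p = 0.11) and Sf3b6, which contacts the branch site, highest at 0.04. The 5 spots of Sf3b1 disagreed, with means from -0.46 to 0.34. Sf3a1 and Sf3a3, both untested, were positive on 8 of 10 and 5 of 13 arrays.

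Of the Prpf genes, 2 of 8 passed, in opposite directions. Prpf39, for a U1 snRNP-associated protein, averaged 0.20 ± 0.06 (SE, n = 17 arrays; limma adjusted p = 0.0282), and was positive on 5 of 6 CCH arrays, 4 of 5 CIH arrays and 4 of 6 control arrays. Prpf8, for the large scaffold protein at the catalytic core of the spliceosome, averaged -0.20 ± 0.07 (limma adjusted p = 0.0358; negative on 13 of 18 arrays). Its 3 spots had means of -0.29, -0.16 and -0.14. For Prpf8, negative arrays numbered 4 of 6 in CCH, 4 of 6 in CIH and 5 of 6 in control.

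Among the SR protein genes, 1 of 7 passed. Srsf2, for an SR protein that binds exonic enhancers, averaged 0.20 ± 0.07 (SE, n = 18; limma adjusted p = 0.0363) and had the highest mean of its family. It was at -0.06, 0.31 and 0.65 on CCH arrays, at 0.05, 0.22 and 0.68 on CIH arrays, and at -0.54, 0.06 and 0.27 on control arrays. The lowest value, on control 4 weeks replicate 1, stood apart from the other control arrays, which lay between -0.10 and 0.27. Srsf10, for a splicing repressor that is dephosphorylated upon stress, had the lowest mean, -0.11 (limma adjusted p = 0.263).

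The Hnrnp family had 4 of 18 genes past the threshold, 1 above and 3 below 0. Hnrnpf, whose product binds G-rich RNA and influences exon choice, had the highest mean among the 53 tested genes, 0.38 ± 0.07 (SE, n = 18; limma adjusted p = 0.00157), or 1.31-fold more signal in the likely male channel. Its ratios were -0.23, 0.64 and 1.18 on CCH arrays, 0.08, 0.54 and 0.96 on CIH arrays, and -0.30, 0.03 and 0.69 on control arrays. It was positive on 5 of 6 CCH, 6 of 6 CIH and 3 of 6 control arrays, and the ranges overlapped. The related gene Hnrnph1 was at -0.17 and Hnrnph2, the only X-linked gene of the set, at 0.09, and neither passed (limma adjusted p = 0.237 and 0.387). Hnrnpab, for a protein also known to bind A-rich and U-rich RNA, had the lowest mean of the family, -0.24 ± 0.07 (limma adjusted p = 0.0179). It was positive on all 2-week arrays (0.10 to 0.33) and negative on all 4-week arrays (-0.89 to -0.18). Hnrnpul1, for a relative of the scaffold protein hnRNP U, averaged -0.21 ± 0.05 (limma adjusted p = 0.00803) and was negative on 17 of 18 arrays. Its 5 spots ranged from -0.45 to -0.01. Hnrnpdl averaged -0.16 ± 0.05 (limma adjusted p = 0.0223), but its 2 spots disagreed, with means of -0.40 and 0.07.

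How firm the 12 calls were differed between the genes. Snrpf, Hnrnpf, Lsm2, U2af2 and Hnrnpab kept their direction and their call in 28 of 28 alternatives, which include leaving out each array in turn. Each of these genes had values from 1 spot only, so taking the median or a single spot left its own values unchanged. Agreement between spots could not be checked for them. Snrpg lost its call only with quantile normalization and with arrays scaled to a common spread (highest limma adjusted p = 0.0706). Hnrnpul1 lost it only when 1 spot, the first listed of those with a value on all arrays, stood for the gene (-0.01, limma adjusted p = 0.926). Hnrnpdl was lost without CCH 2 weeks replicate 1, CIH 2 weeks replicate 2 or control 2 weeks replicate 1 (limma adjusted p = 0.0517 to 0.0586). Prpf39 was lost without CCH 1 week replicate 2, CCH 2 weeks replicate 1, CIH 1 week replicate 2, control 1 week replicate 2 or control 2 weeks replicate 2 (limma adjusted p = 0.0509 to 0.068), and also without centring and with scaled arrays (up to 0.0843). Snrpb was lost on leaving out any of 10 arrays (limma adjusted p = 0.0527 to 0.0695), and was kept without CCH 1 week replicate 2, CCH 2 weeks replicate 1, CCH 4 weeks replicate 2, CIH 2 weeks replicate 1, CIH 4 weeks replicate 2, control 1 week replicate 2, control 2 weeks replicate 2 and control 4 weeks replicate 1. Prpf8 was lost on leaving out any of 11 arrays (limma adjusted p = 0.0529 to 0.0789), and also with the median or a single spot per gene (up to 0.123). It was kept without CCH 1 week replicate 1, CCH 4 weeks replicate 1, CIH 1 week replicate 1, CIH 2 weeks replicate 2, CIH 4 weeks replicate 1, control 1 week replicate 2 and control 4 weeks replicate 2. Srsf2 was lost on leaving out any of 12 arrays (limma adjusted p = 0.0527 to 0.0854), and also without centring and with CIH 1 week replicate 1 regrouped (up to 0.0973). It was kept without CCH 1 week replicate 1, CCH 2 weeks replicate 2, CCH 4 weeks replicate 2, CIH 1 week replicate 2, CIH 4 weeks replicate 2 and control 4 weeks replicate 1. Of the 37 genes with at least 2 spots on 9 or more arrays, 16 had spot means of 1 sign, and the median range between the spots of a gene was 0.24.

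Promoter sequence was read for the genes with a call in either direction and set beside that of all genes. In the RefSeq table (build GRCm38.p6, 250 bases before to 50 after the start of a gene), 53 of the 61 genes matched, with 71 promoters in all, and 10 of the 12 called genes. Their median GC content was 60.7%, against 52.7% for the 32851 promoters of the table. The core of the ETS factor site, CCGGAA on either strand, occurred in 43.7% of them and in 14.9% of all promoters. The core of the hypoxia response element, ACGTG on either strand, occurred in 42.3% of them, in 28.6% of the 14 promoters of called genes and in 19.6% of all promoters. The GC box GGGCGG was in 69.0% against 35.7%, and the TATA box TATAAA in 8.45% against 13.6%, on either strand. These shares are not matched for GC content, and a match is a description of letters. The 150 bases ahead of the start are shown for 4 called genes chosen because this window holds a core, 2 below 0 (Snrpf and Snrpg) and 2 above 0 (Srsf2 and Prpf39). The windows of Lsm2, Hnrnpul1, Hnrnpab, Hnrnpdl and Prpf8 held neither core, and those of Hnrnpf, which has 4 starts in the table, held one ahead of 3 of them. Capitals mark CCGGAA or ACGTG on either strand, so TTCCGG and CACGT are the same cores read from the other strand, and CACGTG holds ACGTG on both.
Snrpf chr10:93589659-93589808, minus strand: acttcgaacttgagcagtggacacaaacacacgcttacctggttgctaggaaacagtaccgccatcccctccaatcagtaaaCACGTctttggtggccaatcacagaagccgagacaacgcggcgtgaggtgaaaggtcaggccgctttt
Snrpg chr6:86371390-86371539, plus strand: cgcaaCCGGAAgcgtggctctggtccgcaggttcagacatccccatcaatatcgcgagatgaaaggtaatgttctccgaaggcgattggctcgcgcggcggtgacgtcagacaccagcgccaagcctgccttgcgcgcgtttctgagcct
Srsf2 chr11:116853095-116853244, minus strand: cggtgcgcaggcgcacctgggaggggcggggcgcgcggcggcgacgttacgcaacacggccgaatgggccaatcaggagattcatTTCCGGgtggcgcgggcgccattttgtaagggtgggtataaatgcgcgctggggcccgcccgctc
Prpf39 chr12:65036184-65036333, plus strand: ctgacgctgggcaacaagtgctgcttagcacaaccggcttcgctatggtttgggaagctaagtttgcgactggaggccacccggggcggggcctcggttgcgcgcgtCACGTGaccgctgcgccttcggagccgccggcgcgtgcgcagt
In these windows Snrpf and Prpf39 held the hypoxia response element core, and Snrpg and Srsf2 the ETS core.

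Within the CCH hearts, 6 of 53 genes differed from 0 (11.3%, against 10.8% of all units), 1 above (background 2.89%) and 5 below (background 7.89%). At an unadjusted p under 0.05 there were 12 (22.6%, against 29.4% of all units). Hnrnpf was above 0 at 0.54 ± 0.12 (SE, n = 6 arrays; limma adjusted p = 0.0127). Every SE given here comes from limma's fit, so it rests on the spread within the 9 groups and not on that between durations. The SD of Hnrnpf over the 6 CCH arrays was 0.51. Below 0 were Snrpf (-0.57), Lsm2 (-0.53), U2af2 (-0.50), Snrpg (-0.42) and Snrpb (-0.41), with limma adjusted p from 0.00643 to 0.047. Only Snrpf kept this call in all 28 alternatives. The count was 1 without CCH 2 weeks replicate 1 or CCH 4 weeks replicate 1, 2 without CCH 1 week replicate 2 or CCH 2 weeks replicate 2, and 1 with quantile normalization or scaled arrays.

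Within the CIH hearts, 6 of 53 genes differed from 0 (11.3%, against 12.1% of all units), 4 above 0 (background 3.73%), all of them Hnrnp genes, and 2 below (background 8.37%). At an unadjusted p under 0.05 there were 15 (28.3%, against 32.5%). Hnrnpf was at 0.52 ± 0.12 (SE, n = 6; limma adjusted p = 0.0127) and Hnrnpk, for a protein that binds C-rich RNA and DNA, at 0.32 ± 0.08 (limma adjusted p = 0.023). Hnrnpr was at 0.33 and Hnrnpa2b1, for a core protein of the hnRNP particle, at 0.29 (limma adjusted p = 0.0461 and 0.0448). Lsm2 at -0.45 and Lsm7 at -0.34 were below 0 (limma adjusted p = 0.0478 and 0.0471). Without centring, 2 were above and 4 below 0, which turns that split. With quantile normalization 2 were above and 0 below 0, and with scaled arrays the count was 0. The count was also 0 without CIH 2 weeks replicate 2 or CIH 4 weeks replicate 1, 1 without CIH 1 week replicate 1 or with that array regrouped by its source names, and 2 without CIH 1 week replicate 2, either CCH array of 2 weeks or either control array of 2 weeks. It was 3 without either CCH array of 1 week, CIH 2 weeks replicate 1 or either control array of 1 week. With the replicate numbers as a block it was 2.

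Within the control hearts, 0 of 53 genes differed from 0 in the limma test, and 4 had an unadjusted p under 0.05. Of all units, 0.00974% passed and 9.15% had such an unadjusted p. The smallest p-values belonged to Snrpf (-0.38 ± 0.10; SE, n = 6; limma adjusted p = 0.282), Prpf8 (-0.32), Hnrnpab (-0.29), Sf3b2 (-0.26) and Srsf11 (-0.17). Snrpf thus had a similar mean in control hearts as over all arrays. That genes passed within hypoxic hearts and not within controls does not show a difference between them, which is tested next.

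**Figure D2:**
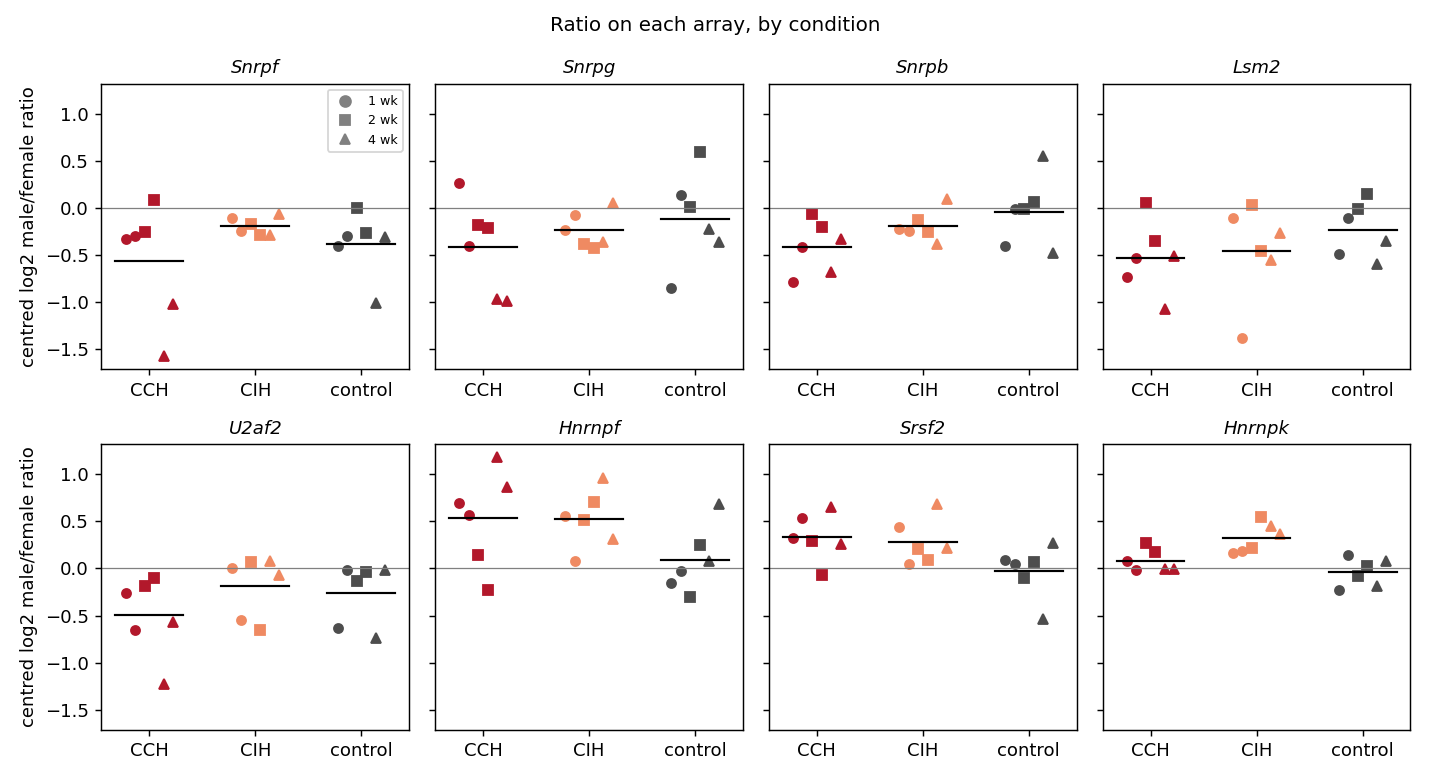
Centred log2 male-to-female ratio (vertical axis) of 8 genes on each array, by condition, with CCH left, CIH centre and control right. Circles, squares and triangles are arrays of 1, 2 and 4 weeks, and bars are means of 6 arrays. Hnrnpk ran from 0.17 to 0.55 in CIH and from -0.22 to 0.15 in control hearts without overlap; the ranges of the other 7 genes overlapped between conditions.

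Constant hypoxia was compared with control over the 3 durations. In CCH minus control, the ratio changed for 0 of 53 genes by limma's test, and 3 genes (5.66%) had an unadjusted p under 0.05. Among all units, 0% passed and 6.32% had an unadjusted p under 0.05. Hnrnpf averaged 0.54 ± 0.51 (SD, n = 6) on CCH arrays and 0.09 ± 0.35 on control arrays, a difference of 0.45 ± 0.17 (SE; limma adjusted p = 0.749). Srsf2 averaged 0.33 ± 0.25 on CCH arrays and -0.03 ± 0.28 on control arrays, a difference of 0.36 ± 0.16 (limma adjusted p = 0.749). Snrpb averaged -0.41 ± 0.28 on CCH arrays and -0.05 ± 0.37 on control arrays, a difference of -0.37 ± 0.17. Snrpg and Hnrnpdl followed with differences of -0.30 ± 0.18 and -0.20 ± 0.12, both at a limma adjusted p of 0.749. The ratios of no gene among the 48 with 12 values were separated between CCH and control arrays. Among all units 0.0622% were. None of these differences passed the threshold after adjustment over all units.

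Intermittent hypoxia gave the smallest p-values of the comparisons with control. In CIH minus control, 0 of 53 genes passed, and 7 (13.2%) had an unadjusted p under 0.05, close to the 12.7% of all units. Of all units, 0.00974% passed. Hnrnpk was at 0.17, 0.29 and 0.55 (lowest, median and highest) on CIH arrays and at -0.22, -0.02 and 0.15 on control arrays. It was the only gene of the 47 with 12 values for which all CIH arrays lay above all control arrays, which held for 0.0987% of units. Its difference of 0.36 ± 0.12 (SE) had a limma adjusted p of 0.161 (0.0962 to 0.566 over 28 alternatives). It was 0.15 when a single spot stood for Hnrnpk, the first listed of its spots, which have equal numbers of values. Hnrnpf averaged 0.52 ± 0.31 (SD, n = 6) on CIH arrays and 0.09 ± 0.35 on control arrays, a difference of 0.44 ± 0.17 (limma adjusted p = 0.281). Lsm7 averaged -0.34 ± 0.28 on CIH arrays and 0.04 ± 0.26 on control arrays, a difference of -0.38 ± 0.15 (limma adjusted p = 0.294). Its 2 spots had means of -0.27 and 0.11 over all arrays. Hnrnpa2b1 (0.30 ± 0.13) and Hnrnpu, for a chromatin-bound scaffold protein (0.34 ± 0.15), completed the first 5. By family, 13 of 18 Hnrnp differences were positive with a median of 0.20, and 5 of 7 Srsf differences with a median of 0.29. The other families did not share this. Of the Snrp, Prpf, Lsm and Sf3b differences, 3 of 7, 3 of 8, 3 of 8 and 2 of 4 were positive. Their medians were -0.06, -0.03, -0.07 and -0.002, and U2af2 was at 0.08. Of all 53 differences, 30 were positive, with a median of 0.02. Of all units, 5044 of 10272 differences were positive with a median of -0.01. In the CCH comparison, which uses the same control arrays, 6 of 18 Hnrnp differences were positive with a median of -0.04, and 5 of 7 Srsf differences with a median of 0.135. The red cell markers Alas2 and Slc4a1 ran from -2.63 to -0.12 on CIH arrays and from -0.55 to 1.19 on control arrays, and their part in these values was not tested.

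**Figure D3:**
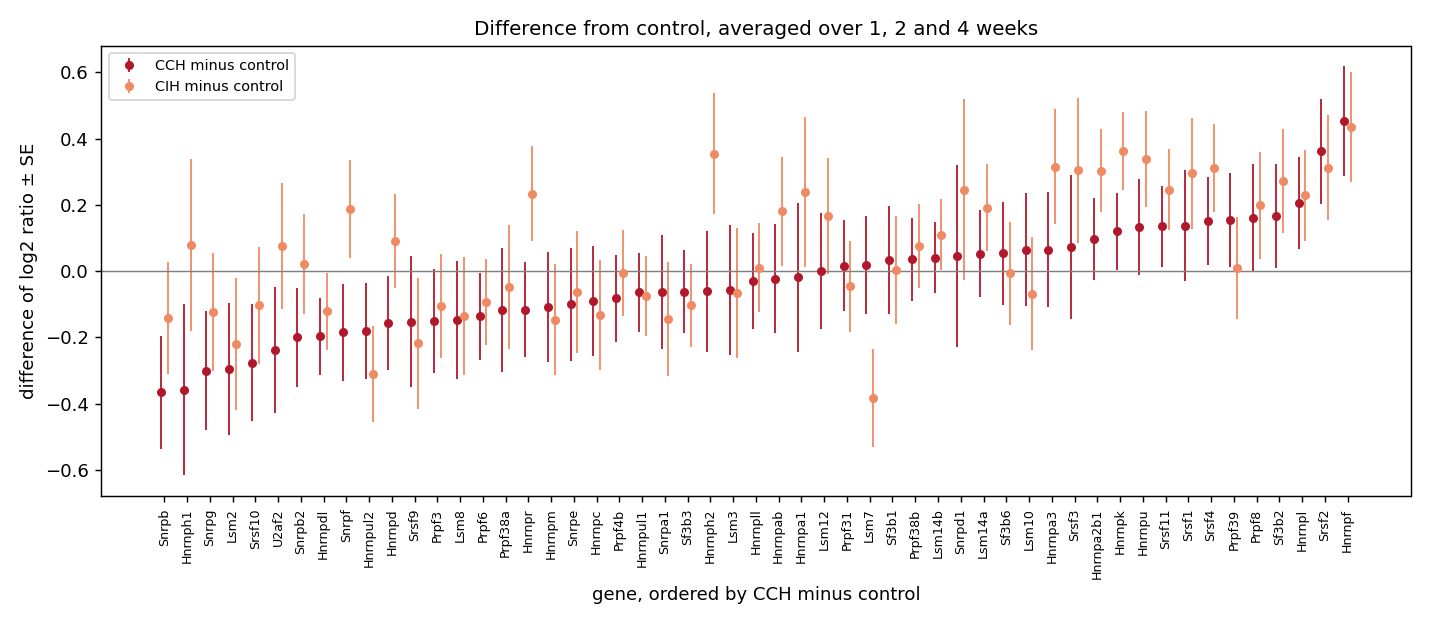
Difference of the log2 male-to-female ratio from control ± SE (vertical axis) for the 53 tested genes, ordered by CCH minus control (dark red), with CIH minus control in light red. Both comparisons share the control arrays. Hnrnpf was highest in both at 0.45 and 0.44, and Lsm7 lowest in CIH minus control at -0.38; no difference passed the threshold.

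Set directly against each other, CCH and CIH hearts did not differ in the male-to-female ratio of any of the 53 genes by limma's test. Unadjusted p-values under 0.05 came from 4 genes (7.55%, against 9.28% of all units), and 0.00974% of all units passed the threshold. Lsm7 averaged 0.06 ± 0.34 (SD, n = 6) on CCH arrays and -0.34 ± 0.28 on CIH arrays, a difference of 0.40 ± 0.15 (SE; limma adjusted p = 0.362). The sign turned to -0.26 when a single spot stood for Lsm7, the first listed of its spots, which have equal numbers of values. Snrpf averaged -0.57 ± 0.61 on CCH arrays and -0.20 ± 0.10 on CIH arrays, a difference of -0.37 ± 0.15 (limma adjusted p = 0.404). The CCH arrays had the wider spread, with both arrays of 4 weeks below -1. Hnrnpr (-0.35 ± 0.14), Hnrnph2 (-0.41 ± 0.18) and Hnrnpk (-0.24 ± 0.12) were the next, with limma adjusted p from 0.43 to 0.554. Of the 53 differences 37 were negative, as were 5710 of 10272 among all units. With both kinds of hypoxia pooled against control, 0 genes passed by limma (3 at an unadjusted p under 0.05, 5.66%, against 11.1% of all units, of which 0% passed). Hnrnpf (0.44 ± 0.14, limma adjusted p = 0.361), Srsf2 (0.34 ± 0.14), Hnrnpk (0.24 ± 0.10), Srsf4 (0.23 ± 0.12) and Hnrnpul2 (-0.25 ± 0.12) had the smallest p-values.

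At single durations each difference rests on 2 arrays against 2, with the spread taken from all groups, and 0 of 53 genes passed limma's test in any of the 6 comparisons. Of the 30 differences named for single durations, 22 moved by over 1.5 times on leaving out 1 array, and 0 changed sign. They were picked by smallest p, which favours a kept sign. For Hnrnpd at 4 weeks of CCH, the only control array with a value could not be left out. Background shares were 0%, 0.0195% and 0% for CCH minus control at 1, 2 and 4 weeks and 0%, 0.00974% and 0% for CIH minus control. At an unadjusted p under 0.05 there were 2, 3 and 6 genes in CCH minus control (6.15%, 9.38% and 15.1% of all units), and 0, 3 and 5 genes in CIH minus control (2.34%, 22.7% and 8.14% of all units). At 1 week of CCH the first genes were Hnrnpf (0.73 ± 0.29), Snrpe (0.74 ± 0.29), Prpf4b (0.45 ± 0.23), Hnrnpu (0.45 ± 0.25) and Lsm8 (0.54 ± 0.31), at a limma adjusted p of 0.711. At 2 weeks of CCH, Snrpe stood at -0.70 and -0.77 on the CCH arrays and at -0.045 and 0.315 on the control arrays, a difference of -0.87 ± 0.29 (SE; limma adjusted p = 0.498), opposite in sign to that of 1 week. There it was followed by Prpf3 (-0.67), Snrpb2 (-0.56), Prpf6 (-0.42) and Prpf38b (-0.40). At 4 weeks of CCH, Hnrnpd, which encodes a binder of A-rich and U-rich elements, stood at -0.38 and -0.585 on the CCH arrays and at 0.38 on the 1 control array with a value. Its difference was -0.87 ± 0.28 (limma adjusted p = 0.216), ahead of Srsf10 (-0.81), Snrpf (-0.64), Hnrnpf (0.64) and Snrpg (-0.69). Without 1 array, Srsf10 ran from -1.23 to -0.39, Snrpf from -0.99 to -0.29 and Hnrnpf from 0.34 to 0.94. The Snrp genes had no common sign over the durations. Their differences from control were positive for 6 of 7 genes at 1 week of CCH (median 0.24), negative for 6 of 7 at 2 weeks (-0.43) and negative for 7 of 7 at 4 weeks (-0.19), with Snrpa1 at -0.001. The medians of all units were 0.03, -0.05 and -0.06.

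For CIH at 1 week, Srsf4, Hnrnpd, Hnrnpu, Prpf3 and Lsm14b led with differences of 0.47, 0.36, 0.40, 0.39 and -0.27. Without 1 array, Srsf4 ran from 0.25 to 0.69, Hnrnpd from 0.00 to 0.72 and Hnrnpu from 0.18 to 0.61. At 2 weeks of CIH the first were Snrpg (-0.71 ± 0.31, limma adjusted p = 0.202), Hnrnpr (0.57), Hnrnpf (0.64), Hnrnpk (0.40) and Srsf9 (-0.64). The Snrp differences were positive for 5 of 7 genes at 1 week of CIH (median 0.17), negative for 7 of 7 at 2 weeks (-0.22) and positive for 5 of 7 at 4 weeks (0.14), where the medians of all units were -0.00, -0.04 and -0.02. Control 2 weeks replicate 2, the array with the highest median over the 61 genes (0.14), enters both 2-week comparisons. At 4 weeks of CIH the first were Lsm7 (-0.65 ± 0.26, limma adjusted p = 0.411), Hnrnpk (0.47), Srsf1 (0.64), Lsm14b (0.41) and Srsf2 (0.59). An F test of whether the effect of hypoxia on the ratio changed with duration gave 0 of 53 genes. At an unadjusted p under 0.05 it gave 3 (5.66%, against 13.0% of all units, of which 0% passed). Hnrnpd (limma adjusted p = 0.371), Snrpe (0.378), Snrpf (0.378), Snrpg (0.388) and Prpf3 (0.403) had the smallest p-values.

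The durations were also compared over all conditions. In 2 weeks minus 1 week, 0 of 53 genes passed by limma (0.00974% of units), but 16 (30.2%) had an unadjusted p under 0.05, against 21.7% of all units. Hnrnpa1, for one of the most abundant hnRNP proteins, had medians of -0.23 at 1 week, 0.56 at 2 weeks and -0.04 at 4 weeks, over ranges of -0.85 to 0.27, 0.05 to 0.81 and -0.73 to 0.40. All 2-week arrays were thus positive. Its difference of 0.76 ± 0.23 (SE, n = 6 arrays each) had a limma adjusted p of 0.104. Hnrnph2 had medians of -0.03, 0.46 and -0.19 at 1, 2 and 4 weeks, and a difference of 0.64 ± 0.18 (limma adjusted p = 0.0999). Snrpb2 (0.49 ± 0.15), Hnrnpab (0.53 ± 0.16) and Lsm3 (-0.52 ± 0.20) followed. Without control 1 week replicate 2, Hnrnpa1, Hnrnph2, Hnrnpab and Snrpb2 passed (limma adjusted p = 0.0285, 0.0493, 0.0193 and 0.0257). The share of all units that passed in that run is not given here, so these calls cannot be set against a background. In 4 weeks minus 1 week, 0 genes passed by limma (2 at an unadjusted p under 0.05, 3.77%, against 9.61% of all units, of which 0% passed). Snrpf had medians of -0.30, -0.21 and -0.66 at 1, 2 and 4 weeks and a difference of -0.43 ± 0.15 (limma adjusted p = 0.362). Hnrnpf had medians of 0.32, 0.20 and 0.78 and a difference of 0.40 ± 0.17. Lsm12 (0.35), Srsf10 (-0.35) and Prpf31 (0.27) were the others of the first 5.

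**Figure D4:**
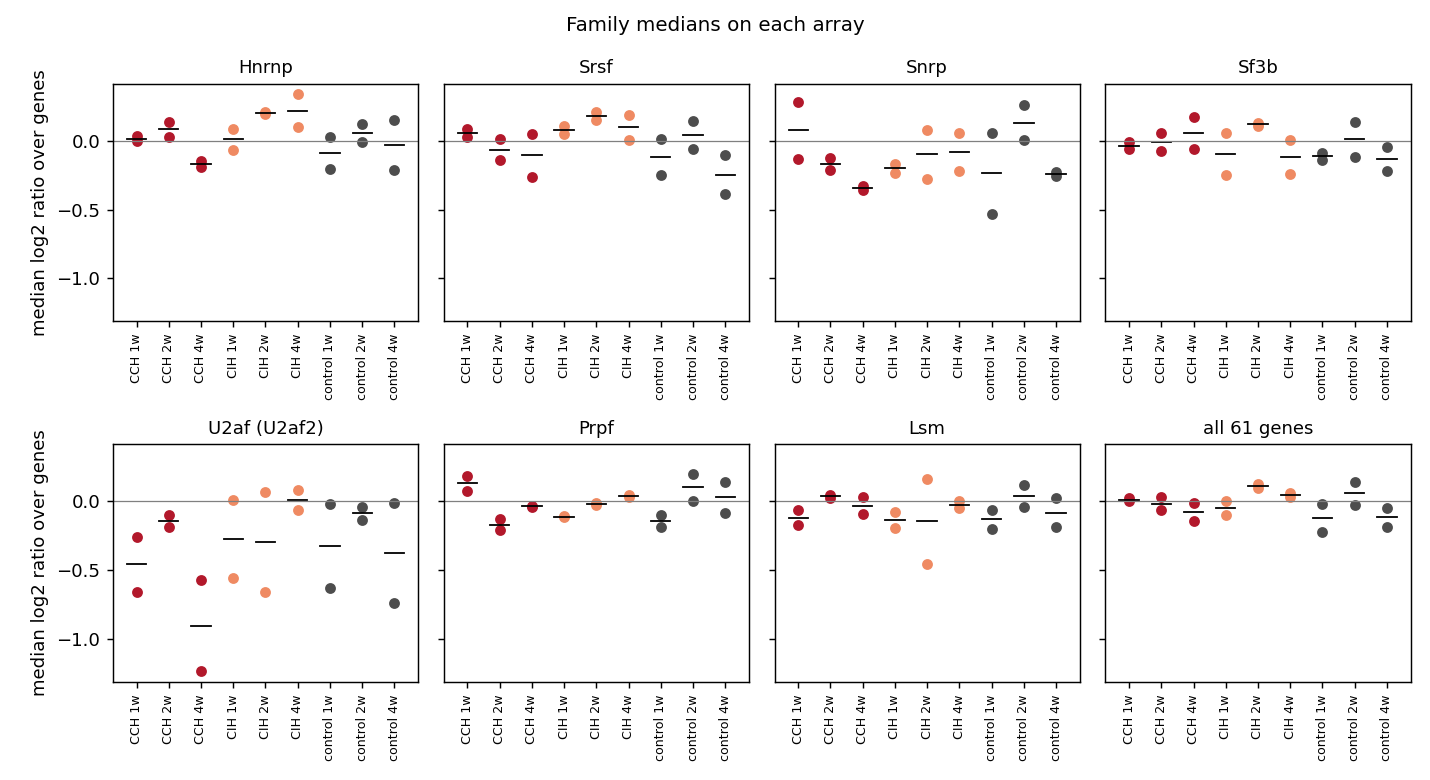
Median log2 male-to-female ratio over the genes of each family (vertical axis) on each array, by condition and duration; points are arrays and bars are means of 2 arrays. The Srsf median lay above 0 on 6 of 6 CIH arrays, and U2af2 lay below 0 on 6 of 6 CCH and 6 of 6 control arrays.

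The median over the 61 genes ranged from -0.22 to 0.14 on single arrays, where that of all units ranged from -0.04 to 0.04. The mean of the array medians was -0.03 ± 0.07 on CCH arrays, 0.04 ± 0.08 on CIH arrays and -0.06 ± 0.13 on control arrays (SD, n = 6 each), and the ranges overlapped. The lowest medians were those of control 1 week replicate 1 (-0.22, with 53 of 61 genes negative) and control 4 weeks replicate 1 (-0.19), and the highest was that of control 2 weeks replicate 2 (0.14, with 41 of 56 genes positive). The control group thus held both ends of the range. The Hnrnp median was 0.14 ± 0.14 on CIH arrays, against -0.02 ± 0.12 on CCH arrays and -0.02 ± 0.16 on control arrays. The Srsf median was -0.04 ± 0.14 on CCH arrays, 0.12 ± 0.08 on CIH arrays and -0.11 ± 0.19 on control arrays. The Snrp median stood below 0 on average in every condition, at -0.15 ± 0.23, -0.13 ± 0.15 and -0.12 ± 0.28 in CCH, CIH and control hearts.

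Among the 46 genes with a value on all arrays, the widest spread was that of Snrpd1 (SD 0.555 over 18 arrays), Hnrnpa1 (0.49) and Srsf3 (0.46), and Srsf11 had the narrowest (0.16). Their median SD was 0.305, against 0.33 for all such units. Snrpd1, for Sm ring protein D1, was at -1.002 on control 1 week replicate 1, -0.91 on control 4 weeks replicate 1 and 1.19 on control 2 weeks replicate 2. Srsf3, for the smallest SR protein, had -0.66, -1.11 and 0.73 on the same 3 arrays, and Hnrnpa1 had -0.85, -0.72 and 0.81. The 3 genes thus had their extremes on control arrays. The median of the 3 cardiomyocyte markers was 0.86, -0.46 and -0.80 on those arrays, and that of the 3 lung markers was -0.83, 0.07 and -0.30. Leukocyte markers (7 of 9 measured) had medians of -0.95 to -0.15 on CCH arrays, -0.72 to -0.14 on CIH arrays and -0.56 to 0.08 on control arrays. The part of any of these cell types in the splicing genes was not tested.

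Other genes of the splicing machinery were read in the same way. Of a list of 90 genes outside the name rule, 68 had a value and 60 were tested. Over all arrays 16 of them (26.7%) differed from 0, 3 above and 13 below, against 27.7% of all units. Sap18, of the exon junction-associated ASAP complex, was at -0.39 ± 0.06 (SE, n = 18; limma adjusted p = 0.000794; negative on 17 of 18 arrays). Xab2, a spliceosome component, was at -0.31 (limma adjusted p = 0.00318). The kinases that phosphorylate SR proteins differed in sign, with Clk4 at 0.24 (limma adjusted p = 0.00585) and Clk3 at -0.24 (limma adjusted p = 0.00755). In the comparisons of conditions and durations, 0 of the 60 passed the limma test, as did at most 0.0195% of all units. By unadjusted p under 0.05, 2 to 15 of the 60 were counted. The 15 came from 2 weeks minus 1 week (25%, against 21.7% of all units). The counts of 2 (3.33%) came from CCH minus control at 1 and 2 weeks and CIH minus control at 1 week. There 6.15%, 9.38% and 2.34% of all units had such a p. The smallest limma adjusted p-value among the 60 genes in CIH minus control was 0.0657. In that comparison 44 of the 60 differences were positive, with a median of 0.115. In CCH minus control 32 were positive, with a median of 0.025.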

How the data were processed

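Hearts of male (Cy5) and female (Cy3) mice were hybridised together on 18 cDNA arrays, 2 in each of 9 groups. The deposited values are log2 ratios of both channels, per the labels and the values; the mean linear ratio is 1 on every array. Background correction, spot filter and normalization are not given in the sources used here. Of 28704 spots, 18511 carried 1 symbol, 937 several and 9256 none, and symbols came from the platform annotation, checked by gene identifier against RefSeq (63 of 63 symbols found, 0 changed).

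The median of each array was subtracted, after which the spots that carried only 1 symbol were averaged per symbol. A unit with a value in each of the 9 groups was fitted with 1 mean per group (limma 3.58.1, R 4.3.3; contrasts.fit, then eBayes with 5.95 prior degrees of freedom) and tested two-sided, with Benjamini-Hochberg adjustment over 10272 units and a threshold of 0.05. A gene with a gap was fitted on the arrays that had a value. The number of arrays limits the precision. The fit was tested on simulated data. Figures used matplotlib 3.10.9.

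The members and lists were chosen with earlier results of these data known. Named were all genes past the threshold, otherwise the 5 with the smallest p, the highest and lowest mean of each family, untested genes, and the first 4 of the list of other splicing genes. Alternatives were no centring, quantile normalization, a common spread, units on all arrays, the median or a single spot per gene, additive terms, robust eBayes, a replicate block, regrouping of 1 array, and leaving out each array. The single spot was the one with most values, or the first listed where spots had equal numbers of values.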

Additional observations from a re-analysis of the deposited data

Results flagged for a closer look

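Among 60 sets of 4 to 6 values tested for a value far from the others (family medians and the called genes within each condition), 2 stood out, where chance gives about 1 in 20. The median of the Snrp genes was 0.284 on CCH 1 week replicate 1, against -0.356 to -0.125 on the other CCH arrays. On that array Snrpe was at 0.56 and Snrpd1 at 0.39, whereas Snrpb was at -0.79. Prpf39 was at -0.115 on CIH 1 week replicate 1, against 0.146 to 0.243 on the other 4 CIH arrays with a value. That is the array whose title and source names give different groups.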

How the results depend on the processing

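Of 2452 values of single genes under the alternatives, 2273 kept their direction and side of the threshold. Of the others, 172 were no longer past it, 4 came past it and 3 turned. Those 3 turned with a single spot per gene. Lsm7 was then at -0.26 in CCH minus CIH and 0.059 in CIH minus control at 4 weeks, and Lsm14b at 0.148 in CIH minus control at 1 week. The count over all 18 arrays was 8 to 17 on leaving out an array and 11 to 17 otherwise. Within CCH hearts the count of 6 was 1 to 8 on leaving out an array, 1 with quantile normalization, 1 with scaled arrays and 10 with a single spot. Within CIH hearts the count of 6 was 0 to 9 on leaving out an array, 2 with quantile normalization, 0 with scaled arrays, 2 with the replicate block and 1 with CIH 1 week replicate 1 regrouped to CCH 2 weeks. In 2 weeks minus 1 week it was 0 to 4, the 4 without control 1 week replicate 2. The counts of 0 within controls and in every other comparison of conditions or durations stayed 0 in each alternative run. With additive terms, 60 genes could be tested and 16 differed from 0, among them Sf3a1 (0.34), Prpf19 (-0.32) and Sf3b4 (0.36). Those 3 had no value in whole groups, such as CIH 4 weeks, for which the additive terms stood in. The shares of all units called under the alternatives are not given here. Without centring, the mean of the CCH array medians was -0.092. The replicate numbers, which follow the A and B letters of the titles, did not pair the arrays. The correlation of same-number deviations was over 0.1 in 15 of 36 pairs of groups, from -0.56 to 0.46. The titles of CCH 1 week replicate 1 and CCH 2 weeks replicate 1 carry no letter, and both were counted with A. With the replicate numbers as a block, 12 genes differed from 0 over all arrays, 5 within CCH hearts, and 0 in each comparison of conditions. The causes of these shifts were not tested. With 2 arrays a group, differences at single durations carried standard errors such as 0.29 for Hnrnpf, so changes of that size were not detectable. Larger differences did not pass either, such as -0.87 for Snrpe at 2 weeks of CCH (limma adjusted p = 0.498).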
